A study of Homo sapiens with 12 samples.

Results

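This report describes transcription factors of the early neural lineage in human embryonic stem cells and in the mesoderm-like cells made from them, with and without the catalytic domain of TET1. The set held 10 genes, chosen by symbol, out of the 36762 gene symbols that both count tables list: SOX1, SOX3, PAX6, POU3F1, POU3F2, POU3F4, HES3, HES5, OLIG2 and OLIG3. All 10 symbols were found in both tables. They were chosen with earlier results of these libraries known, so their levels and differences are given here as a description.

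The TET1 enzyme oxidises methylated cytosines of DNA, and the series asked how that activity bears on human germ cell fate. Bulk RNA-seq was made from UCLA1, a human embryonic stem cell (hESC) line, and from incipient mesoderm-like cells (iMeLC), a brief stage of differentiation that precedes human primordial germ cell-like cells. The 4 groups were CDKO iMeLC, CTRL iMeLC, CDKO hESC and CTRL hESC, with 3 libraries each, where CDKO lines carry a knockout of the TET1 catalytic domain and CTRL lines are the controls. All 12 libraries go back to UCLA1, so the groups share 1 genetic background, and the labels place the lines CDKO1102, CDKO1105, CDKO1312, CTRL1101, CTRL1106 and CTRL1109 in both stages. The hESC columns are headed WT or KO with a replicate number but no line. Here WT was taken as CTRL and KO as CDKO, from the sample titles of that stage.

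As background, a vertebrate epiblast cell that receives neither mesodermal nor endodermal signals tends toward a neural fate, and the genes described here mark steps of that path. SOX1 and SOX3 are SOXB1 factors close to SOX2 and act in neural progenitors, PAX6 is a paired-box factor of the early neuroectoderm, and the class III POU factors POU3F1, POU3F2 and POU3F4 act in neural progenitors and neurons. HES3 and HES5 are basic helix-loop-helix repressors that hold progenitors back from differentiation, HES5 as a target of Notch signalling, while OLIG2 and OLIG3 are basic helix-loop-helix factors that pattern the neural tube.

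The cytosine-guanine (CG) dinucleotide is the main site of DNA methylation and so of TET1 activity, and the factors differ widely in how many their promoters hold. The windows below, 250 bases before to 50 bases after an annotated start, are from RefSeq on GRCh38.p14, are written 5′ to 3′ on the gene's strand, and have each CG in capitals. HES3, POU3F4 and OLIG3 are shown because their levels differed most between the stages in CDKO cells, and POU3F1 because its window is the densest in CG among the factors. The HES3 window lies at chr1:6243929-6244228 on the plus strand, that of POU3F4 at chrX:83508040-83508339 on the plus strand, that of OLIG3 at chr6:137494345-137494644 on the minus strand and that of POU3F1 at chr1:38046744-38047043 on the minus strand.
HES3: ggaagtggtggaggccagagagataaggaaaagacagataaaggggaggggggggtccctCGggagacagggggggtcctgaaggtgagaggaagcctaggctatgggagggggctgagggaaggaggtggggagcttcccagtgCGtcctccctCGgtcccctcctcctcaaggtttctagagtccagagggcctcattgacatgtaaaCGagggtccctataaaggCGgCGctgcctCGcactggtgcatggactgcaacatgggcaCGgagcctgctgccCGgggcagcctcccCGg
POU3F4: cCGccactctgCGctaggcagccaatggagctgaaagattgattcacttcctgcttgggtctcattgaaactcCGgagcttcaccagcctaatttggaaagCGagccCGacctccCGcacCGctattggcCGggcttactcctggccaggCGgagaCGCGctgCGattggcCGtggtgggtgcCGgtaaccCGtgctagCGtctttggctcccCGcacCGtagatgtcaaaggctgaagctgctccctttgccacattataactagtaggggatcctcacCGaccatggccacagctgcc
OLIG3: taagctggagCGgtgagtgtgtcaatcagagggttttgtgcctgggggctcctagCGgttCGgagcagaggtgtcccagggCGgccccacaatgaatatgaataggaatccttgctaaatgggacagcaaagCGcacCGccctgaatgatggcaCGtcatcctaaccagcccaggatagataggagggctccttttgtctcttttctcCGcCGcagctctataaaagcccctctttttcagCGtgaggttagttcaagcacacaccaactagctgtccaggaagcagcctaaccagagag
POU3F1: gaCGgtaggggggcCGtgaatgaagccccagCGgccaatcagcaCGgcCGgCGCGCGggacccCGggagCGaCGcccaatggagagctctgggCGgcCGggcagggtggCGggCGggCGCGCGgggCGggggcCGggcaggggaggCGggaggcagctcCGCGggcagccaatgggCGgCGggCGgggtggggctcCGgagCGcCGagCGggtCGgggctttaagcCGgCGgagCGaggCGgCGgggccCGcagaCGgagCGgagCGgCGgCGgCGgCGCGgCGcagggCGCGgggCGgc
The POU3F1 window holds 49 CG, that of POU3F4 holds 19, and those of HES3 and OLIG3 hold 10 each. Across the 35116 promoter windows of the RefSeq table the median was 14, and 1.6% held at least as many as POU3F1, 42.9% at least as many as POU3F4 and 56.4% at least as many as HES3 or OLIG3. The promoter table matched 9 of the 10 genes, OLIG2 being the one without an entry. The other single windows held 45 CG for HES5, 37 for SOX1, 24 for POU3F2 and 20 for SOX3, and the 9 starts of PAX6 held 5 to 32.

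Short motifs known for these families were searched on both strands of the windows. The octamer ATGCAAAT that POU factors bind was in none of the 17 windows, against 1.8% of all windows, and neither was a SOX motif, AACAAAG, which 5.2% of all windows hold. The N-box CACNAG bound by HES repressors, held by 38.0% of all windows, occurred once in the HES3 window and once in that of POU3F4, and in neither the OLIG3 nor the POU3F1 window. These are matches of letters only and say nothing of binding.

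The libraries differed in depth by stage, with totals of 52121702 to 109479071 counts in iMeLC and 12517593 to 18855099 counts in hESC. The stages were counted in separate tables of different depth, so stage, table and depth cannot be told apart. TET1 had 304 to 356 CPM in CDKO iMeLC, against 288 to 322 CPM in CTRL iMeLC, and 335 to 396 CPM in CDKO hESC, against 290 to 339 CPM in CTRL hESC. The genotypes overlapped at both stages, and a count over the whole gene does not show whether part of it was deleted. CPM are counts scaled to a common library size, here with TMM factors computed over all 12 libraries.

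Markers of pluripotency and of the primitive streak followed the stage labels, with 2 libraries standing apart. The sum of 8 pluripotency markers was 5387 to 5982 CPM in CDKO iMeLC, 4629 to 5312 CPM in CTRL iMeLC, 8727 to 9293 CPM in CDKO hESC and 7797 to 8517 CPM in CTRL hESC. The summed level of 7 primitive streak markers, which iMeLC should carry, was 898 to 1191 CPM in CDKO iMeLC and 842 and 1035 CPM in CTRL1101 and CTRL1109 iMeLC, but 327 CPM in CTRL1106 iMeLC. In hESC that sum was 62.5 and 90.6 CPM in CDKO hESC 1 and 2, 206 CPM in CDKO hESC 3 and 24.8 to 59.4 CPM in CTRL hESC. The sum of 5 definitive endoderm markers was 144 CPM in CDKO hESC 3, against 10.98 CPM in CDKO hESC 1, 14.5 CPM in CDKO hESC 2 and 5.71 to 21.3 CPM in CTRL hESC. The sum of 5 markers of differentiated neurons was 19.02 to 22.2 CPM in CDKO iMeLC, 16.5 to 22.0 CPM in CTRL iMeLC, 25.4 to 29.8 CPM in CDKO hESC and 22.6 to 28.1 CPM in CTRL hESC. The sum of 8 neural crest markers was 23.2 to 42.5 CPM in CDKO iMeLC and 15.0 to 30.4 CPM in CTRL iMeLC. In hESC it was 44.0 to 56.5 CPM in CDKO and 48.3 to 63.5 CPM in CTRL cells. In bulk RNA, fewer cells of a type and less RNA per cell cannot be told apart.

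Levels of different genes were set side by side per kilobase of exon (CPM per kb, with exon lengths from GENCODE release 29). HES3 had the highest mean in every group, at 2.57 CPM per kb in CDKO iMeLC, 7.89 in CTRL iMeLC, 107 in CDKO hESC and 122 in CTRL hESC. SOX3 came next, at 2.30 CPM per kb in CDKO iMeLC, 4.27 in CTRL iMeLC, 5.87 in CDKO hESC and 7.53 in CTRL hESC. POU3F1 followed, at 1.70 CPM per kb in CDKO iMeLC, 3.24 in CTRL iMeLC, 4.54 in CDKO hESC and 5.0 in CTRL hESC. In hESC the HES3 libraries lay above those of every other factor, whereas in iMeLC the ranges of HES3, SOX3 and POU3F1 ran into each other, HES3 with SOX3 and SOX3 with POU3F1. The first rank of HES3 in iMeLC rests on its exon length of 697 bases. In CPM the means of HES3, SOX3 and POU3F1 were 1.79, 4.91 and 3.71 in CDKO iMeLC. They were 5.50, 9.10 and 7.08 CPM in CTRL iMeLC. The annotation used for counting is not known, so these lengths may not match the counts. The lowest places went to PAX6 and HES5, with PAX6 last in CDKO hESC at 0.0584 and in CTRL hESC at 0.0503 CPM per kb, and HES5 last in CDKO iMeLC at 0.0202 and in CTRL iMeLC at 0.00998 CPM per kb. OLIG2 had rank 4 of the 10 in CDKO iMeLC at 0.502 CPM per kb and rank 9 in CTRL iMeLC at 0.0124 CPM per kb. Below rank 3 most neighbours in the order overlapped over their 3 libraries in both iMeLC groups and in CDKO hESC.

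**Figure D1:**
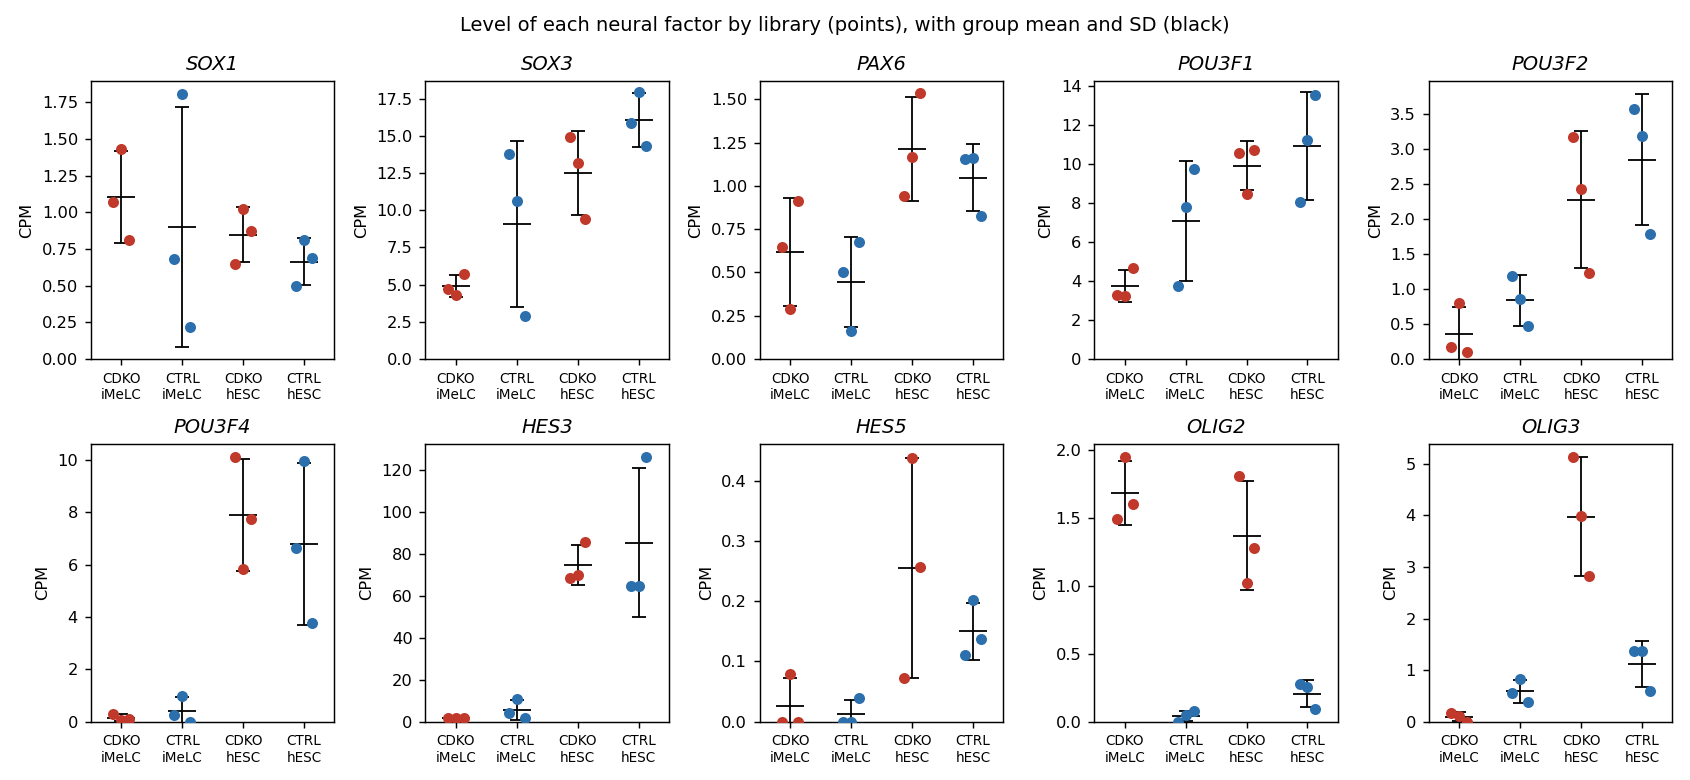
Level of each neural factor in CPM (y axis, linear, from 0) in CDKO iMeLC, CTRL iMeLC, CDKO hESC and CTRL hESC (x axis), with 1 point per library, CDKO in red and CTRL in blue, and the group mean and SD in black. HES3 and POU3F4 stand far lower in both iMeLC groups than in both hESC groups, and OLIG2 is above 1 CPM in every CDKO library and below 0.3 CPM in every CTRL library.

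Between CDKO and CTRL cells the factors that stood apart were the OLIG pair. OLIG2 was called higher in CDKO cells at both stages, and OLIG3 was called higher in CDKO hESC, where called means an adjusted p under 0.05 in edgeR's quasi-likelihood test over all genes. In iMeLC OLIG3 had the opposite sign, with all CDKO libraries below all CTRL libraries, and was not called. No SOX, PAX, POU3F or HES member was called between the genotypes at either stage.

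OLIG2, which specifies motor neuron and oligodendrocyte progenitors, lies at chr21:33025845-33029196 on the plus strand of GRCh38. It had 1.49, 1.95 and 1.61 CPM in CDKO1102, CDKO1105 and CDKO1312 iMeLC, against 0, 0.0464 and 0.0782 CPM in CTRL1101, CTRL1106 and CTRL1109 iMeLC. The counts behind these values were 67, 148 and 111 in CDKO iMeLC and 0, 4 and 8 in CTRL iMeLC. Every CDKO library was above every CTRL library by a wide margin. The fitted log2 fold change was 5.21 ± 0.73 (SE, n = 3 each), a fold of 37.0. Each SE of a log2 fold change or interaction is that value, without its sign, divided by the square root of the test's F statistic. It is an approximation implied by the test, not an error taken from the fit.

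In hESC, OLIG2 had 1.81, 1.02 and 1.28 CPM in CDKO hESC 1 to 3, against 0.275, 0.253 and 0.0917 CPM in CTRL hESC 1 to 3. These rest on 25, 21 and 25 counts in CDKO hESC and on 5, 5 and 2 counts in CTRL hESC. The groups again did not overlap, and the log2 fold change was 2.71 ± 0.47 (SE, n = 3 each), a fold of 6.54. OLIG2 passed the filter on low counts at both stages through its CDKO libraries alone, since no CTRL library reached the filter's minimum of 0.575 CPM in hESC or 0.111 CPM in iMeLC, so a gene with its pattern could be tested only because it differed. The level in CDKO cells was close at the 2 stages, at 1.68 ± 0.24 CPM in CDKO iMeLC and 1.37 ± 0.40 CPM in CDKO hESC (SD, n = 3 each), and its libraries overlapped between them. In CTRL cells it was 0.0415 ± 0.0393 CPM in iMeLC and 0.206 ± 0.100 CPM in hESC (SD, n = 3 each).

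The call of OLIG2 rests on few libraries. In hESC it was lost when any library other than CTRL hESC 2 was left out, and in iMeLC when any library other than CTRL1101, the one with no OLIG2 count, was left out. The log2 fold change stayed between 4.67 and 6.06 in iMeLC over these omissions. The summed level of 5 endoderm markers was 151 to 332 CPM in CDKO iMeLC and 13.2 to 123 CPM in CTRL iMeLC, with no marker of the list at 0 in either group. All 5 had a positive log2 fold change (median 1.87, 0 called by edgeR, 3 at an unadjusted p under 0.05, 1 called by DESeq2). The sum of 6 fibroblast markers, none of them at 0 in either group, was 789 to 1073 CPM in CDKO iMeLC and 510 to 1047 CPM in CTRL iMeLC, and 6 of 6 had a positive log2 fold change (median 1.09, 0 called by edgeR, 3 at an unadjusted p under 0.05, 3 called by DESeq2). In hESC 6 of 6 streak markers tested and 5 of 5 endoderm markers had a positive log2 fold change in CDKO cells, with medians of 1.64 and 2.28, and edgeR called 1 streak marker, NODAL, and 0 endoderm markers. An unadjusted p under 0.05 was found for 5 of these streak and 4 of these endoderm markers, and DESeq2 called 1 streak and 0 endoderm markers. Over all genes in the fit, DESeq2 called 618 of 17222 in hESC and 1566 of 19999 in iMeLC. The share of all genes at an unadjusted p under 0.05 was not computed for any comparison. Nothing is read from such counts, here or for the lists below. The streak sum was 62.5 to 206 CPM in CDKO hESC and 24.8 to 59.4 CPM in CTRL hESC, and the endoderm sum was 10.98 to 144 CPM in CDKO hESC and 5.71 to 21.3 CPM in CTRL hESC. Without CDKO hESC 3, the library high in endoderm markers, the OLIG2 log2 fold change in hESC was 2.75 (edgeR adjusted p = 0.0936). Without CTRL1106 the OLIG2 log2 fold change in iMeLC was 5.26 (edgeR adjusted p = 0.0740). Leaving out 1 library does not separate these markers from genotype. The part of these markers in the OLIG2 and OLIG3 differences was not tested.

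OLIG3, a factor of dorsal neural tube progenitors (chr6:137492202-137494250, minus strand), had 5.13, 3.99 and 2.82 CPM in CDKO hESC 1 to 3, against 1.37, 1.36 and 0.596 CPM in CTRL hESC 1 to 3. Each CDKO library was above each CTRL library. The log2 fold change was 1.85 ± 0.35 (SE, n = 3 each), a fold of 3.60, and the call was kept only when CTRL hESC 2 or CTRL hESC 3 was the library left out. In iMeLC it had 0.178, 0.118 and 0 CPM in CDKO1102, CDKO1105 and CDKO1312, against 0.550, 0.835 and 0.391 CPM in CTRL1101, CTRL1106 and CTRL1109. All CDKO libraries were now the lower ones, on 8, 9 and 0 counts in CDKO iMeLC and 47, 72 and 40 counts in CTRL iMeLC. The filter's minimum of 0.111 CPM was reached by 3 CTRL libraries and 1 CDKO library. OLIG3 thus passed the filter in iMeLC through the group where it was higher, and its lack of overlap there is a description. The log2 fold change was -2.65 ± 0.91 (SE, n = 3 each) and did not pass the threshold, although it did in a fit over all 12 libraries, at -2.64. In hESC that fit called 0 of the factors, so the hESC calls of OLIG2 and OLIG3 were lost in it.

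Whether CDKO cells differed from CTRL cells by another amount in iMeLC than in hESC was asked by an interaction term over all 12 libraries. For OLIG3 it was -4.48 ± 0.91 and for OLIG2 2.49 ± 0.90 on the log2 scale (SE, 12 libraries), and neither was called by edgeR's quasi-likelihood test. Of the 9 factors tested, 0 were called for the interaction, 2 had an unadjusted p under 0.05, and DESeq2 called 1, which was OLIG3. Over all genes tested, edgeR called 0.0148% higher, 0.00494% lower and 0.0197% either way, whereas DESeq2 called 210 of 20262 genes. OLIG1, the neighbour of OLIG2 40.9 kb away on chromosome 21, had 0.312, 0.158 and 0.318 CPM in CDKO iMeLC, against 0.0702, 0.626 and 0.0978 CPM in CTRL iMeLC. It had 0.722, 0.632 and 0.205 CPM in CDKO hESC, against 0.0550, 0.253 and 0.321 CPM in CTRL hESC. OLIG1 libraries of the genotypes overlapped at both stages, and its log2 fold change in iMeLC was -0.04 (adjusted p = 0.982, edgeR). OLIG1 was singled out after its values were seen.

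**Figure D2:**
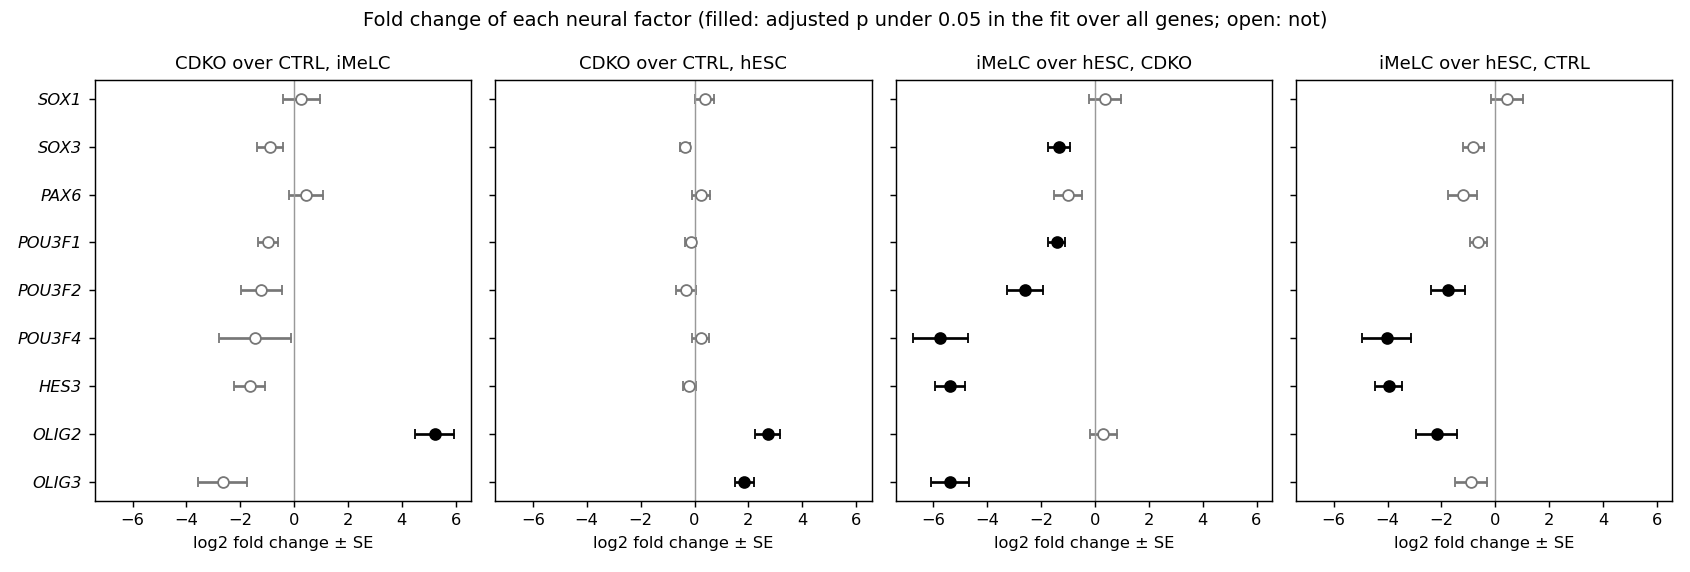
Log2 fold change with its SE (x axis) of the 9 factors tested (rows) for CDKO over CTRL in iMeLC and in hESC and for iMeLC over hESC in CDKO and in CTRL cells (panels), with filled points for an adjusted p under 0.05 over all genes. Only OLIG2 is filled in iMeLC between the genotypes, OLIG2 and OLIG3 in hESC, and the filled points of the stage panels all lie left of 0.

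Taken as a set, 2 of the 9 factors tested were called higher and 0 lower in CDKO hESC, against 0.598% of all genes tested called higher, 0.714% called lower and 1.31% called either way. In CDKO iMeLC 1 of 9 was called higher and 0 lower, against 0.0800% of all genes called higher, 0.265% lower and 0.345% either way. The groups did not overlap for 2 of the 9 at each stage, where 22.0% of all genes had groups that did not overlap in hESC and 26.5% in iMeLC. These comparisons were in view when the genes were chosen, so nothing is read from those shares. The median log2 fold change of the 9 was 0.22 in hESC, with 5 above 0 and 4 below, and -0.96 in iMeLC, with 3 above and 6 below. Over all genes it was -0.0018 in hESC and -0.0277 in iMeLC. HES5 did not pass the filter on low counts in any comparison with all libraries in the fit.

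No other factor was called between CDKO and CTRL hESC. Their log2 fold changes ran from -0.35 ± 0.17 for SOX3 to 0.37 ± 0.37 for SOX1 (SE, n = 3 each), and the libraries of the genotypes overlapped for each of them. In iMeLC 5 of them, SOX3, POU3F1, POU3F2, POU3F4 and HES3, had lower means in CDKO cells with overlapping libraries. The spread among the CTRL iMeLC libraries was wide for SOX3, POU3F1, POU3F4 and HES3, as the values below show. For POU3F2 the CDKO libraries also spread widely, at 0.361 ± 0.385 CPM in CDKO iMeLC and 0.841 ± 0.363 CPM in CTRL iMeLC (SD, n = 3 each). CTRL1106, the library with the lowest streak marker sum, was the highest for HES3 and POU3F4.

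HES3 (chr1:6244192-6245578, plus strand) had 1.85, 1.97 and 1.55 CPM in CDKO1102, CDKO1105 and CDKO1312 iMeLC, against 3.98, 10.7 and 1.81 CPM in CTRL1101, CTRL1106 and CTRL1109 iMeLC. The CDKO libraries were tightly grouped and the CTRL libraries were not, with CTRL1109 inside the CDKO range. The log2 fold change was -1.65 ± 0.58 (SE, n = 3 each) and became -0.72 without CTRL1106. It was not called by edgeR and was called by DESeq2. In hESC the gene had 68.4, 69.7 and 85.4 CPM in CDKO hESC 1 to 3, against 64.8, 64.6 and 126 CPM in CTRL hESC 1 to 3. The CDKO range lay inside the CTRL range, and the log2 fold change was -0.19 ± 0.23 (SE, n = 3 each), or 0.22 without CTRL hESC 3, its highest library.

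SOX3 (chrX:140502985-140505116, minus strand) had 4.72, 4.32 and 5.70 CPM in CDKO iMeLC, against 13.8, 10.6 and 2.91 CPM in CTRL1101, CTRL1106 and CTRL1109. Here CTRL1109 was the lowest of the 6 libraries. POU3F1 (chr1:38044611-38046794, minus strand), also known as OCT6, had 3.27, 3.21 and 4.66 CPM in CDKO iMeLC, against 3.72, 7.80 and 9.72 CPM in CTRL1101, CTRL1106 and CTRL1109. For this gene CTRL1101 was the low CTRL library and CTRL1109 the high one, so the CTRL lines took a different order for SOX3 and for POU3F1. The log2 fold changes were -0.91 ± 0.48 for SOX3 and -0.96 ± 0.36 for POU3F1 (SE, n = 3 each). Neither was called, and POU3F1 was called once CTRL1101 was left out, at a log2 fold change of -1.27.

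POU3F2 (chr6:98834592-98839470, plus strand), also known as BRN2, had 0.178, 0.803 and 0.101 CPM in CDKO iMeLC, against 1.19, 0.858 and 0.469 CPM in CTRL iMeLC, with CDKO1105 close to CTRL1106. POU3F4 (chrX:83508261-83512127, plus strand), also known as BRN4, had 0.312, 0.0790 and 0.0868 CPM in CDKO iMeLC, against 0.258, 0.997 and 0 CPM in CTRL1101, CTRL1106 and CTRL1109. Most of the POU3F4 signal in CTRL iMeLC was thus in the library CTRL1106. Its log2 fold change was -1.47 ± 1.34 (SE, n = 3 each) and changed sign to 0.26 without that library, while that of POU3F2 was -1.22 ± 0.75 (SE, n = 3 each). Its exons share 954 bases with an annotated gene on the opposite strand, and whether strand was used in counting is not known here, so the POU3F4 count is uncertain.

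SOX1 (chr13:112067647-112070488, plus strand) and PAX6 (chr11:31784779-31818062, minus strand), the usual first markers of human neuroectoderm, were at most 1.81 CPM in any library. SOX1 had 1.07, 1.43 and 0.810 CPM in CDKO iMeLC, against 0.679, 1.81 and 0.215 CPM in CTRL iMeLC. It had 0.650, 1.02 and 0.871 CPM in CDKO hESC, against 0.495, 0.808 and 0.688 CPM in CTRL hESC. CTRL1106 was again the highest iMeLC library for SOX1 and CTRL1109 the lowest. PAX6 had 0.646, 0.290 and 0.911 CPM in CDKO iMeLC, against 0.503, 0.162 and 0.675 CPM in CTRL iMeLC, and 0.939, 1.17 and 1.54 CPM in CDKO hESC, against 1.15, 1.16 and 0.826 CPM in CTRL hESC. For PAX6 CTRL1106 was the lowest of the iMeLC libraries. Of the 20812 exon bases of PAX6, 5241 lie opposite exons of ELP4, which had 15.5 CPM in CDKO iMeLC, 17.3 in CTRL iMeLC, 9.75 in CDKO hESC and 10.1 in CTRL hESC on average, so the PAX6 counts are uncertain.

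HES5 (chr1:2528745-2530245, minus strand) was at or near the limit of detection. It had 0, 6 and 0 counts in CDKO iMeLC, 0, 0 and 4 in CTRL iMeLC, 1, 9 and 5 in CDKO hESC and 2, 4 and 3 in CTRL hESC. A library with no count allows up to 0.0668 CPM in CDKO1102, 0.0434 in CDKO1312, 0.0351 in CTRL1101 and 0.0348 in CTRL1106, taking 3 counts as the limit and covering counting error alone. In CTRL cells the iMeLC libraries, at 0 to 0.0391 CPM, were below the hESC libraries, at 0.110 to 0.202 CPM. With no filter on low counts the HES5 log2 fold change between the stages was -3.04 in CDKO and -3.16 in CTRL cells, and edgeR called it neither there nor between the genotypes.

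Between the stages POU3F2, POU3F4 and HES3 were called lower in iMeLC in both genotypes, with the steepest differences for HES3 and POU3F4 in CTRL cells and for these and OLIG3 in CDKO cells. The comparison asks what happens to them as stem cells take up the mesoderm-like state, and it was fitted in each genotype over all 12 libraries. In CDKO cells 6 of the 9 tested, SOX3, POU3F1, POU3F2, POU3F4, HES3 and OLIG3, were called lower in iMeLC and 0 higher, against 27.7% of all genes called lower, 32.1% called higher and 59.8% called either way. In CTRL cells 4 of the 9, POU3F2, POU3F4, HES3 and OLIG2, were called lower and 0 higher, against 19.9% of all genes called lower, 29.5% higher and 49.4% either way. The groups did not overlap for 7 of the 9 in CDKO cells, where 70.7% of all genes did not overlap, and for 6 of the 9 in CTRL cells, where 54.9% did not. The median log2 fold change of the 9 was -1.41 in CDKO and -1.22 in CTRL cells, and over all genes it was -0.0788 in CDKO and -0.0135 in CTRL cells. As above, the genes were chosen with these comparisons known, so nothing is read from the shares.

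HES3 had a mean of 1.79 ± 0.22 CPM in CDKO iMeLC, against 74.5 ± 9.5 CPM in CDKO hESC (SD, n = 3 each), a log2 fold change of -5.38 ± 0.55 (SE). In CTRL cells the means were 5.50 ± 4.64 CPM in iMeLC and 85.2 ± 35.5 CPM in hESC (SD, n = 3 each), and the log2 fold change was -3.96 ± 0.50 (SE). The lowest hESC library of either genotype, at 64.6 CPM, was above the highest iMeLC library, CTRL1106 at 10.7 CPM. Without CTRL1106 the CTRL value was -4.94.

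POU3F4 had 10.1, 5.84 and 7.74 CPM in CDKO hESC 1 to 3 and 6.65, 9.95 and 3.76 CPM in CTRL hESC 1 to 3, next to the iMeLC values of at most 0.997 CPM given above. The log2 fold change between the stages was -5.73 ± 1.03 in CDKO and -4.03 ± 0.90 in CTRL cells (SE, n = 3 each), and without CTRL1106 the CTRL value was -5.81. No iMeLC library reached the lowest hESC library in either genotype. The iMeLC values of POU3F4 rest on 26 counts over the 3 CDKO and 108 over the 3 CTRL libraries. POU3F2 had 3.18, 2.43 and 1.23 CPM in CDKO hESC and 3.57, 3.18 and 1.79 CPM in CTRL hESC, and its log2 fold changes were -2.60 ± 0.66 in CDKO and -1.76 ± 0.62 in CTRL cells (SE, n = 3 each). Its groups did not overlap either, and the CTRL call was lost without CTRL hESC 1, CTRL hESC 2 or CTRL1109.

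POU3F1 and SOX3 were called lower in CDKO cells and, by edgeR, not in CTRL cells, where DESeq2 called both lower. POU3F1 had 10.5, 8.46 and 10.7 CPM in CDKO hESC and 8.02, 11.2 and 13.5 CPM in CTRL hESC, and log2 fold changes of -1.41 ± 0.32 in CDKO and -0.63 ± 0.31 in CTRL cells (SE, n = 3 each). SOX3 had 15.0, 13.2 and 9.43 CPM in CDKO hESC and 15.9, 17.9 and 14.3 CPM in CTRL hESC, and log2 fold changes of -1.35 ± 0.41 in CDKO and -0.82 ± 0.40 in CTRL cells (SE, n = 3 each). The interaction was -0.79 for POU3F1 and -0.53 for SOX3 on the log2 scale and was not called for either by edgeR's test, so the stage difference was not shown to differ between the genotypes.

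The OLIG pair parted company between the stages in CDKO cells. OLIG3 averaged 0.0989 ± 0.0907 CPM in CDKO iMeLC, against 3.98 ± 1.15 CPM in CDKO hESC (SD, n = 3 each), a log2 fold change of -5.38 ± 0.71 (SE), whereas OLIG2 differed by 0.31 ± 0.51 (SE) with overlapping libraries. In CTRL cells OLIG3 averaged 0.592 ± 0.225 CPM in iMeLC and 1.11 ± 0.45 CPM in hESC (SD, n = 3 each), a log2 fold change of -0.90 ± 0.59 (SE) that was not called. OLIG2 was called lower in CTRL iMeLC at -2.18 ± 0.75 (SE, n = 3 each), on 12 counts over the 3 iMeLC libraries and 12 over the 3 hESC libraries, and the call was lost without CTRL hESC 1 or CTRL hESC 2. With at most 0.275 CPM in any CTRL library it entered this fit through its CDKO libraries, and it did not pass the filter in a fit over the 6 CTRL libraries, where 8 of the factors were tested and 3 called. PAX6 and SOX1 were not called in either genotype. For PAX6 the log2 fold changes were -0.99 ± 0.53 in CDKO and -1.22 ± 0.53 in CTRL cells, and for SOX1 they were 0.37 ± 0.60 in CDKO and 0.43 ± 0.61 in CTRL cells (SE, n = 3 each). The SOX1 value in CTRL cells changed sign to -0.63 without CTRL1106.

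**Figure D3:**
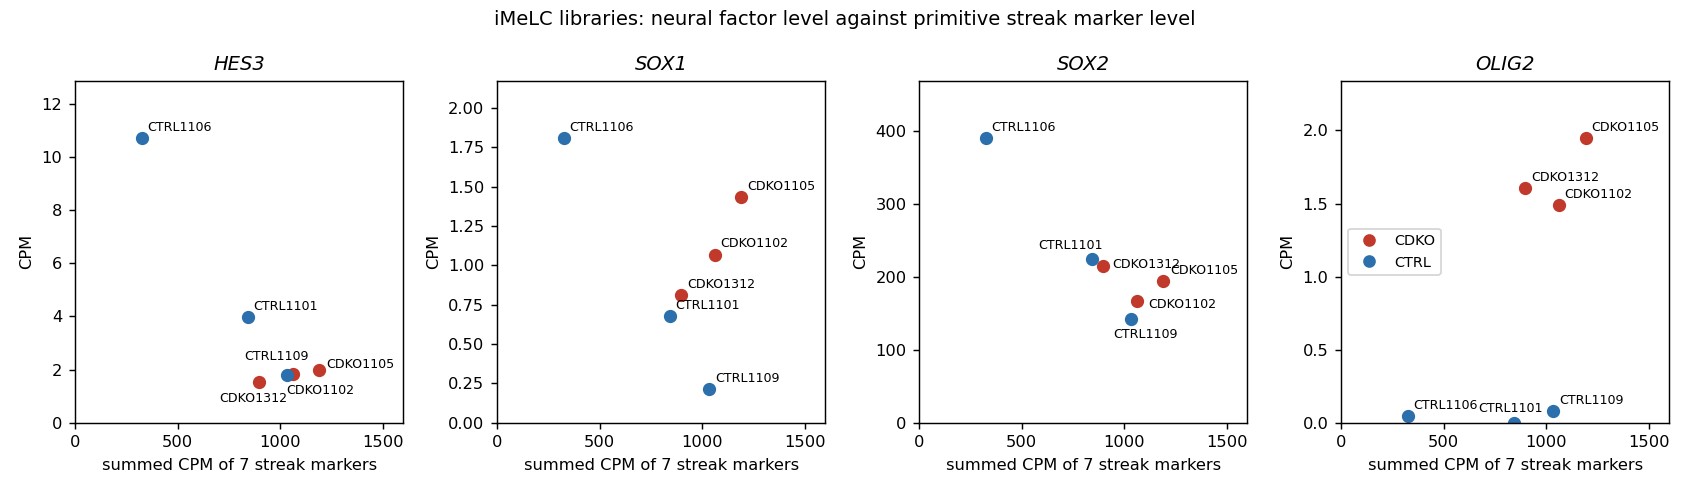
Level of HES3, SOX1, SOX2 and OLIG2 in CPM (y axis) in the 6 iMeLC libraries against the summed CPM of 7 primitive streak markers (x axis), with CDKO lines in red and CTRL lines in blue, each named. CTRL1106 combines the lowest streak sum, 327 CPM, with the highest HES3, SOX1 and SOX2, and is low in OLIG2 like the other CTRL lines.

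Within iMeLC the library CTRL1106 thus stood apart for several of the factors at once. SOX2, the SOXB1 factor shared by pluripotent and neural cells, was at 391 CPM there and at 143 to 224 CPM in the other 5 iMeLC libraries. HES3, SOX1, POU3F4 and OLIG3 were each highest in CTRL1106, while PAX6 was lowest there. Other factors were highest elsewhere, SOX3 and POU3F2 in CTRL1101 at 13.8 and 1.19 CPM, POU3F1 in CTRL1109 at 9.72 CPM and OLIG2 in CDKO1105 at 1.95 CPM. The part of the lower streak marker level in these values was not tested.

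Of 38 further early neural genes listed, 35 were tested between the stages, and 14 were called higher and 9 lower in CDKO iMeLC than in CDKO hESC, 9 higher and 8 lower in CTRL iMeLC than in CTRL hESC. As given above, 59.8% of all genes were called either way between the stages in CDKO and 49.4% in CTRL cells, so calls this common are not a result about any of the 4 lists described here. GBX2, a homeobox factor of the anterior hindbrain, averaged 36.6 ± 6.9 CPM in CDKO iMeLC and 8.0 ± 1.1 CPM in CDKO hESC, and 30.2 ± 10.7 CPM in CTRL iMeLC and 3.47 ± 0.81 CPM in CTRL hESC (SD, n = 3 each). CDH2, N-cadherin, which mesoderm also expresses, rose with log2 fold changes of 3.67 ± 0.32 in CDKO and 3.52 ± 0.32 in CTRL cells, and ZIC5 fell with -0.98 ± 0.12 in CDKO and -0.74 ± 0.12 in CTRL cells (SE, n = 3 each). SOX2 fell to 192 ± 24 CPM in CDKO iMeLC, against 639 ± 16 CPM in CDKO hESC, and to 253 ± 126 CPM in CTRL iMeLC, against 544 ± 32 CPM in CTRL hESC (SD, n = 3 each). PROM1, a surface protein of progenitors, rose with log2 fold changes of 0.67 ± 0.13 in CDKO and 0.75 ± 0.13 in CTRL cells (SE, n = 3 each). The list held genes called in both directions, and its median log2 fold change was 0.21 in CDKO and -0.20 in CTRL cells, where the median over all genes was -0.0788 in CDKO and -0.0135 in CTRL cells.

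Between the genotypes 2 of 24 tested early neural genes were called higher in CDKO hESC and 0 lower, and the list's median log2 fold change was 0.042. Over all genes 0.598% were called higher and 1.31% either way. Of the 24, 13 had an unadjusted p under 0.05, and DESeq2 called 6. Over all genes DESeq2 called 618 of 17222 in hESC, and no share of all genes is known to set beside the 13. GBX2 was one of those edgeR called, at 8.0 ± 1.1 CPM in CDKO hESC and 3.47 ± 0.81 CPM in CTRL hESC (SD, n = 3 each), a log2 fold change of 1.22 ± 0.21 (SE; edgeR adjusted p = 0.0282). FABP7, a fatty acid binding protein of radial glia, was the other, at 2.71 ± 0.54 CPM in CDKO hESC and 0.894 ± 0.136 CPM in CTRL hESC (SD, n = 3 each), a log2 fold change of 1.62 ± 0.28 (SE; edgeR adjusted p = 0.0289). SOX11 had a log2 fold change of -0.31 ± 0.07 (SE, n = 3 each) and was not called. In iMeLC, where DESeq2 called 1566 of 19999 genes, the median of the list was 0.25. Of its 35 genes tested, 0 were called by edgeR, 9 had an unadjusted p under 0.05, and DESeq2 called 4. The smallest adjusted p there belonged to OTX2, a forebrain and epiblast homeobox factor, at 79.1 ± 25.1 CPM in CDKO iMeLC and 34.1 ± 5.1 CPM in CTRL iMeLC (SD, n = 3 each; edgeR adjusted p = 0.098), then to ZIC5 with a log2 fold change of -0.58 and to RAX with -3.00.

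Of 21 proneural and neuronal genes, 16 were tested between the stages, and 3 were called higher and 8 lower in CDKO iMeLC, against 59.8% of all genes called either way, and 4 higher and 4 lower in CTRL iMeLC, against 49.4%. DCX, a microtubule protein of young neurons, fell with log2 fold changes of -2.58 ± 0.20 in CDKO and -2.22 ± 0.20 in CTRL cells, and the RNA-binding protein gene ELAVL3 with -2.44 ± 0.42 in CDKO and -1.94 ± 0.40 in CTRL cells (SE, n = 3 each). TUBB3, a neuronal tubulin, rose with log2 fold changes of 2.22 ± 0.22 in CDKO and 1.81 ± 0.22 in CTRL cells, and STMN2, another microtubule protein, with 4.39 ± 0.55 in CDKO and 5.62 ± 0.67 in CTRL cells (SE, n = 3 each). Markers of neurons were thus called in both directions, and the list's median log2 fold change was -1.38 in CDKO and -0.50 in CTRL cells. Between the genotypes the median was -0.59 in iMeLC and 0.047 in hESC, and 0 of 15 were called in iMeLC by edgeR, with 4 at an unadjusted p under 0.05 and 2 called by DESeq2. In hESC 0 of 12 were called, with 5 at an unadjusted p under 0.05 and 0 called by DESeq2. EBF2, a helix-loop-helix factor, had the smallest adjusted p, at 7.81 ± 2.0 CPM in CDKO iMeLC and 1.46 ± 0.64 CPM in CTRL iMeLC (SD, n = 3 each; edgeR adjusted p = 0.0608).

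The Notch pathway, in which ligands such as DLL1 and JAG1 activate NOTCH receptors and, through RBPJ, the HES and HEY repressors, was represented by 26 genes, all of them tested. Between the stages 3 were called higher and 11 lower in CDKO iMeLC, against 59.8% of all genes called either way, and 2 higher and 9 lower in CTRL iMeLC, against 49.4%. The median log2 fold change was -0.43 in CDKO and -0.12 in CTRL cells. The feedback inhibitor NRARP fell with log2 fold changes of -1.74 ± 0.16 in CDKO and -1.35 ± 0.16 in CTRL cells, and DTX1, a regulator of Notch, with -2.48 ± 0.25 in CDKO and -2.06 ± 0.24 in CTRL cells (SE, n = 3 each). The repressor HEYL fell with -3.30 ± 0.42 in CDKO and -3.33 ± 0.43 in CTRL cells (SE, n = 3 each). The coactivator MAML1 fell with -0.54 ± 0.09 in CDKO and -0.47 ± 0.09 in CTRL cells, and the protease ADAM10, which cleaves the receptors, rose with 0.88 ± 0.09 in CDKO and 0.46 ± 0.09 in CTRL cells (SE, n = 3 each). Between the genotypes the median was 0.041 in hESC and -0.10 in iMeLC, and 1 of 26 was called in hESC, against 1.31% of all genes. It was LFNG, a glycosyltransferase that modifies NOTCH, at 16.6 ± 1.4 CPM in CDKO hESC and 27.1 ± 1.3 CPM in CTRL hESC (SD, n = 3 each), a log2 fold change of -0.70 ± 0.10 (SE; edgeR adjusted p = 0.0168). In hESC 7 of the 26 had an unadjusted p under 0.05, and DESeq2 called 2. In iMeLC 0 of 26 were called by edgeR, 4 had an unadjusted p under 0.05, and DESeq2 called 2.

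Among 30 family relatives in the tables, the other SOX, POU, PAX, HES and OLIG type factors, 25 were tested between the stages, with 2 called higher and 8 lower in CDKO iMeLC, against 59.8% of all genes called either way, and 1 higher and 9 lower in CTRL iMeLC, against 49.4%. The median log2 fold change was -0.60 in CDKO and -0.53 in CTRL cells. POU5F1, the pluripotency factor OCT4, was one of the lower genes, at 977 ± 45 CPM in CDKO iMeLC and 1534 ± 78 CPM in CDKO hESC, and at 1006 ± 87 CPM in CTRL iMeLC and 1385 ± 99 CPM in CTRL hESC (SD, n = 3 each). BHLHE23, close to the OLIG genes, fell with log2 fold changes of -3.38 ± 0.58 in CDKO and -3.08 ± 0.60 in CTRL cells (SE, n = 3 each). Between the genotypes POU2F2, the octamer factor OCT2, was the 1 relative of 17 called in hESC, at 5.19 ± 0.72 CPM in CDKO hESC and 10.3 ± 1.7 CPM in CTRL hESC (SD, n = 3 each), a log2 fold change of -0.99 ± 0.18 (SE; edgeR adjusted p = 0.0358). In iMeLC it was at 2.11 ± 0.51 CPM in CDKO iMeLC and 5.78 ± 1.01 CPM in CTRL iMeLC (SD, n = 3 each) and was not called, with an edgeR adjusted p of 0.0776. The list's median between the genotypes was 0.16 in hESC and -0.057 in iMeLC. Of the 17 relatives tested in hESC, 8 had an unadjusted p under 0.05, and DESeq2 called 3. Over all genes edgeR called 1.31% in hESC. Of the 24 relatives tested in iMeLC, 0 were called by edgeR, 6 had an unadjusted p under 0.05, and DESeq2 called 4. For the interaction edgeR called 0 genes of the 4 lists. An unadjusted p under 0.05 was found for 6 early neural, 3 proneural and neuronal, 4 Notch and 1 of the related genes, and DESeq2 called 1, an early neural gene.

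**Figure D4:**
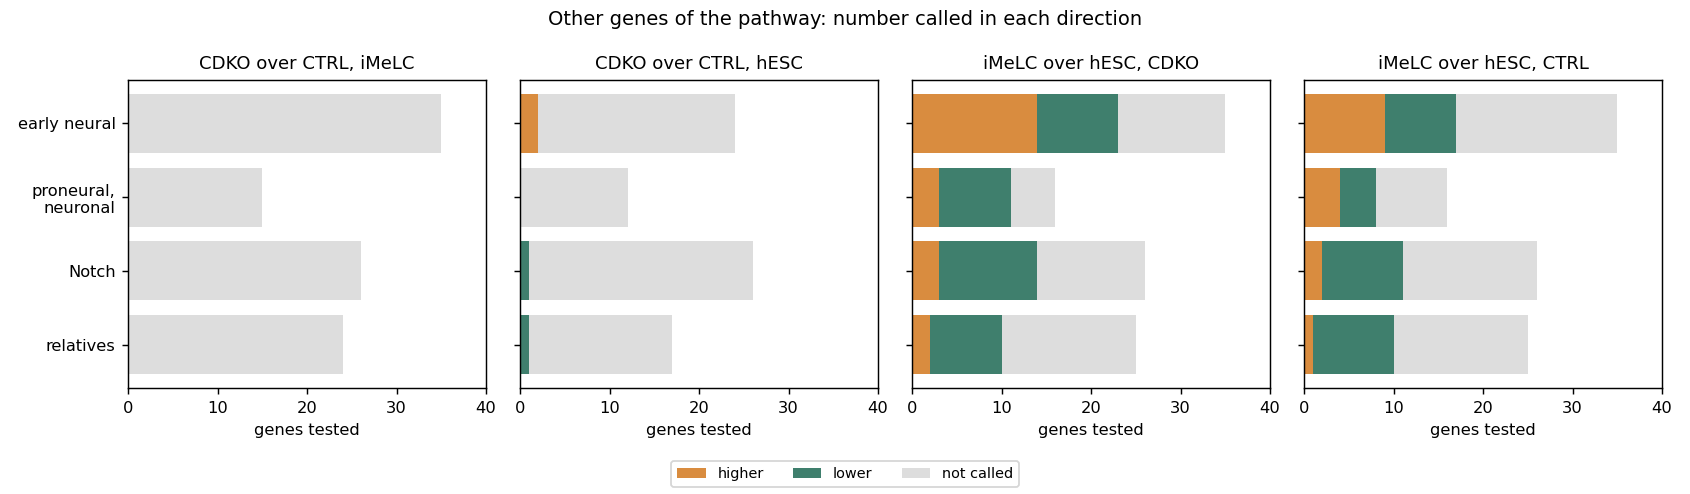
Number of genes tested (x axis, bar length) in 4 gene lists (rows) for CDKO over CTRL in iMeLC and in hESC and for iMeLC over hESC in CDKO and in CTRL cells (panels), divided into those called higher, called lower and not called. In the stage panels every list has genes called in both directions, with 14 early neural genes called higher in CDKO cells, and in the genotype panels 4 genes are called, all in hESC.

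The calls of GBX2, FABP7, LFNG and POU2F2 in hESC were each lost in 3 to 5 of the 6 omissions of a library. GBX2 kept its call without CTRL hESC 2 or 3, FABP7 without CTRL hESC 2, LFNG without any 1 of the CTRL hESC libraries and POU2F2 without CTRL hESC 1 or 2. Their log2 fold changes kept their sign in each omission. The OLIG2 and OLIG3 calls in hESC were lost under the same omissions of CDKO libraries.

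The genes on either side of each factor were also looked at, a set chosen after values had been seen. Of 13 neighbouring protein-coding genes tested in hESC, 1 was called between the genotypes. It was CDR1, 278.5 kb from SOX3, at 5.32 ± 0.46 CPM in CDKO hESC and 2.12 ± 0.15 CPM in CTRL hESC (SD, n = 3 each), a log2 fold change of 1.33 ± 0.19 (SE; edgeR adjusted p = 0.016), against 1.31% of all genes called. The call was lost in 4 of the 6 omissions of a library and kept without CTRL hESC 2 or CTRL hESC 3. Between the stages in CTRL cells 15 neighbours were tested, with 4 called higher and 3 lower in iMeLC, against 49.4% of all genes called either way. GPR153, 1.8 kb from HES3, was lower in CTRL iMeLC than in CTRL hESC, at 5.43 ± 0.60 CPM in iMeLC and 15.0 ± 7.9 CPM in hESC (SD, n = 3 each; edgeR adjusted p = 0.00129). Without CTRL hESC 3 its log2 fold change there was -0.90. In CDKO cells GPR153 was at 10.6 ± 2.4 CPM in iMeLC and 11.1 ± 2.3 CPM in hESC (SD, n = 3 each).

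Finally, the genes whose pattern over the 12 libraries was most like that of each factor were listed, as Pearson's r of log2 CPM after subtraction of each stage's mean, among genes past the filter, for the 6 factors with a mean of at least 1 CPM. For OLIG3 these were FAM171B at 0.96, URGCP at 0.90 and ATP6V1G2 at 0.90, and for HES3 they were CNNM2, NLGN3 and LRP11, each at 0.95. SOX3 was followed by STRN4 at 0.93 and by ANKRD34B and GPR176 at 0.92, and POU3F1 by the clone-named gene AL133367.1 at 0.96 and by SPAG4 and LMBR1L at 0.95. POU3F2 was followed by PALB2 at 0.91 and CALN1 at 0.89, and POU3F4 by the clone-named gene AC016590.3, PCDH18 and FA2H, each at 0.91. Among the factors themselves the highest values were 0.69 for POU3F4 with SOX3 and with SOX1, and the lowest was -0.76 for HES3 with PAX6. OLIG2 and OLIG3 stood at -0.29. The points share the 12 libraries, their depths and the 2 tables, and the values are descriptions.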

How the data were processed

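The authors deposited raw whole-number counts of reads by gene symbol, in a table for hESC and another for iMeLC with 6 libraries each. The submitters' processing notes name the tools cutadapt, FastQC and edgeR and the build GRCh38, and the labels' protocols name a SMARTer Stranded Total RNA kit. Which aligner, counter, annotation and strand option were used is not stated in those sources. Library totals were 12517593 to 109479071 counts, so low counts were measured less precisely in hESC.

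The 10 members and the gene lists were chosen with earlier results of these data known. All members were described in each comparison, and of each list the up to 4 genes with the smallest adjusted p were named; some genes the rule would name are not reported here. Counts were tested with edgeR 4.0.16 under R 4.3.3 (quasi-likelihood test, two-sided, TMM, filterByExpr with a minimum count of 10, Benjamini-Hochberg adjustment over all genes tested, threshold 0.05). Genotype was fitted within each stage on 6 libraries, and stage and the interaction over 12 libraries, treated as independent although by their labels the lines recur in both stages. CPM were computed with TMM factors over all 12 libraries, CPM per kb with GENCODE release 29 exon lengths. The SE of a log2 fold change, also in the figure, was its absolute value divided by the square root of the test's F statistic, an approximation. Replicate libraries of a group differed by a chi-square of 4.41 to 198 per gene, where sampling noise gives about 1. Nothing in the labels says when lines were cultured, so p-values measure the spread between these libraries, which may be technical. Alternatives were DESeq2 1.42.0, its size factors in edgeR, no filter, other libraries in the fit, thinned counts, plain library totals and leaving out each library.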

Additional observations from a re-analysis of the deposited data

How the results depend on the processing

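Of 193 alternative values of the factors' fold changes under other settings than omitted libraries, 182 kept direction and side of the threshold, 8 passed it newly, 2 no longer passed and 1 changed sign, the SOX1 interaction at 0.34 with thinned counts. The genotype comparison in hESC called 226 genes, and 618 with DESeq2, 1228 with no filter, 72 in a fit over all 12 libraries (with 0 of the factors called there) and 5 to 493 with a library left out (0 to 2 of the factors). The genotype comparison in iMeLC called 69 genes, and 1566 with DESeq2 (2 of the factors, OLIG2 and HES3), 428 with no filter, 1310 over 12 libraries (2 of the factors, OLIG2 and OLIG3) and 15 to 2646 with a library left out (0 to 2 of the factors), most without CTRL1101. The stage comparison in CTRL called 10013 genes and 4 of the factors, 7 of them with DESeq2, and 8527 to 9925 genes with 2 to 5 of the factors when a library was left out. The stage comparison in CDKO called 12113 genes, and 10817 to 12577 with 6 to 7 of the factors when a library was left out. The interaction called 4 genes, and 210 with DESeq2 and 29 with no filter, each with 1 of the factors, OLIG3, and 1 to 439 with 0 to 1 of the factors when a library was left out, OLIG3 being called without CTRL1101. The cause of these changes was not tested.

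With a library left out the log2 fold change changed sign for HES3 (-0.36 to 0.22), POU3F1 (-0.32 to 0.050) and POU3F4 (-0.075 to 0.61) in hESC, for POU3F4 (-2.34 to 0.26) and SOX1 (-0.19 to 1.29) in iMeLC, for SOX1 between the stages in CTRL (-0.63 to 0.85) and, in the interaction, for SOX1 (-0.55 to 0.93), PAX6 (-0.22 to 0.63) and POU3F4 (-2.52 to 0.00019). With plain library totals, 3 group means moved by more than their SD, to 1.54 CPM for HES3 and 1.44 CPM for OLIG2 in CDKO iMeLC and to 18.1 CPM for SOX3 in CTRL hESC. With DESeq2's size factors the median over all genes was -0.129 between the stages in CDKO and -0.104 in CTRL cells. No paired analysis was possible because the hESC columns name no line. Depth limits HES5, and OLIG2 in CTRL cells, which rest on few counts. In CDKO iMeLC, OLIG3 and POU3F4 also rest on few counts, 17 and 26 over the 3 libraries.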
